A study of Homo sapiens with 42 samples.

Results

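Transcripts of the SR splicing factor family were followed through 7 maps of m6A, the N6-methylation of adenosine within RNA, in HepG2 cells. The genes were SRSF1 (ENSG00000136450), SRSF2 (ENSG00000161547), SRSF3 (ENSG00000112081), SRSF4 (ENSG00000116350), SRSF5 (ENSG00000100650), SRSF6 (ENSG00000124193), SRSF7 (ENSG00000115875), SRSF10 (ENSG00000188529) and SRSF11 (ENSG00000116754). Every m6A peak that the deposited tables record under 1 of these 9 Ensembl gene identifiers was taken, whatever its strength. This gave 106 of the 211410 peaks in all 7 lists, and 9 of 17005 genes. On the genome, the 106 peaks fell into 24 regions, each being a group of peaks of 1 gene that share bases across lists. Regions are numbered here from the 5' end of each gene.

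HepG2 is a human hepatocellular carcinoma line. All cells had been infected with a lentivirus carrying a short hairpin RNA (shRNA) and kept under puromycin. The first set of conditions was a non-specific control shRNA and shRNAs against METTL3, METTL14, WTAP and SETD2 (shSETD2#1). The second set was shSETD2#2 with a non-specific control of its own, called the second control here. Each condition had 3 input libraries and 3 libraries of RNA pulled down with an m6A antibody, and each condition rests on a single shRNA. The authors' caller, exomePeak, joined the 3 replicates into 1 list per condition, so no value below has a replicate error and no test between conditions exists. The files hold no transcript levels, so neither the knockdown of each target nor the abundance of the SR transcripts could be checked. A peak that is missing from a list was not called there. Less methylation, fewer transcripts and fewer reads cannot be told apart as reasons for that.

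SR proteins bind short enhancer sequences in exons through RNA recognition motifs, and recruit the splicing machinery through a domain rich in arginine and serine. Kinases of the SRPK and CLK families phosphorylate that domain, which sets where the proteins sit in the nucleus and when they act. Many SR genes limit their own output by splicing a poison exon into their transcripts, which are then degraded. m6A is written by METTL3, the catalytic subunit, with METTL14, which helps to bind RNA, and the adaptor WTAP. The nuclear m6A reader YTHDC1 is known to bind SRSF3 and SRSF10. SETD2 places trimethylation on lysine 36 of histone H3, and the series asks, by its design, whether losing it touches m6A as losing the writers does.

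The lists ranged from 28645 peaks (SETD2 #1) to 33672 peaks (control), and the reads behind them are unknown from the files used. SRSF1 and SRSF2 need a caution before any result. In all 7 lists, SRSF1 region 1 and both SRSF2 regions lay on top of a peak of a gene on the opposite strand, recorded as ENSG00000279069 at SRSF1 and ENSG00000092931 at SRSF2. Across each whole list there were 248 to 275 pairs of single-block peaks on opposite strands that shared at least 90% of their bases. Between 86.9% and 95.7% of these pairs had log10 p-values within 10% of each other. At SRSF2 region 1 the log10 p was -81.4 in the control list and -81.6 for the opposite-strand peak, and -203 for both in the second control. The libraries came from a stranded kit, per the labels' protocols, but whether counting used the strand is unknown. Reads of either strand may therefore be shared at these 3 regions, which cannot be told from the lists. The other 21 regions held no peak of the opposite strand in any list.

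Fewest SR peaks were called in the METTL14 and WTAP lists, and most in the second set. The control list had 16 SR peaks, spread over all 9 genes. METTL3 was left with 12 (7 genes), METTL14 with 9 (7 genes) and WTAP with 10 (6 genes), while SETD2 #1 had 15 across all 9. Second control and SETD2 #2 had 21 and 23, again across all 9. SR peaks were thus 0.0475% of the control list, between 0.0312% and 0.0395% of the METTL3, METTL14 and WTAP lists, 0.0524% of the SETD2 #1 list, and 0.0672% and 0.0786% of the second control and SETD2 #2 lists. The whole lists followed another order, since the second control was the shorter of the controls (31249 peaks) and yet held more SR peaks.

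Of the 24 regions, 8 were called in all 7 lists, as were 33.3% of the 44552 regions made in the same way over all genes. These belonged to 6 genes: SRSF1 region 1, SRSF2 regions 1 and 2, SRSF4 region 2, SRSF6 region 1, SRSF7 region 1, and SRSF11 regions 2 and 4. Of the 16 control peaks, 8 had a counterpart in all 6 other lists, against 45.7% of control peaks over all genes. The same number, 8 of 16, had a counterpart in each of the 4 other lists of the first set (56.9% over all genes), and 8 lacked one in at least 1 of the METTL3, METTL14 and WTAP lists (38.5%). In all of those 3 lists a counterpart was missing for 3 of the 16 (15.6% over all genes). Of the 24 regions, these 3 included, 11 had no peak in the METTL3, METTL14 and WTAP lists (25.6% of regions over all genes). The other 8 of these 11 had no control peak either, so they were not lost from the control. The second set alone had 7 of the 24, all among those 8 (12.0% over all genes), in SRSF4, SRSF5, SRSF6 and SRSF10. The first set alone had 1 of the 24, SRSF1 region 2, where 29.8% of regions over all genes appeared in that set only.

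**Figure D1:**
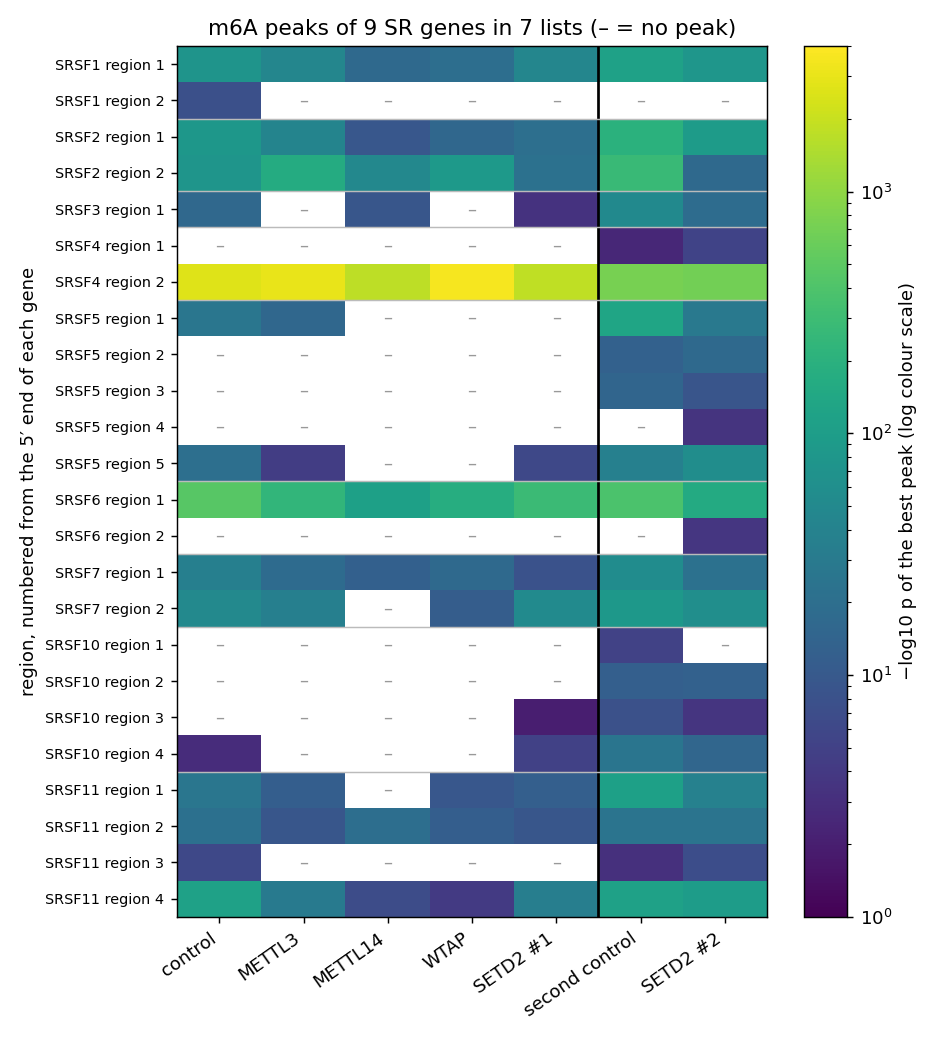
Support of each SR gene region (rows, numbered from the 5′ end of the gene) in each of 7 peak lists (columns). Colour gives −log10 p of the best peak on a log scale, a dash marks a region with no peak, and the vertical line divides the first from the second set. SRSF4 region 2 is brightest in every column, and the rows of SRSF5 are empty under METTL14 and WTAP.

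Control peaks missing from the knockdown lists were then counted. A peak counted as absent from a list in which its blocks, the stretches left after introns are removed, shared no base with a peak of that strand. From the METTL3 list 4 of 16 SR peaks were absent (25.0%, exact Clopper-Pearson 95% interval 7.27 to 52.4%), while 22.8% of all control peaks were. From METTL14 it was 7 (43.8%, 19.8 to 70.1%) against 29.8%, and from WTAP 6 (37.5%, 15.2 to 64.6%) against 28.8%. From SETD2 #1 3 were absent (18.8%, 4.05 to 45.6%) against 27.0%. The intervals cover counting error only and take the peaks of a gene as independent. Each held the share of all peaks, so none of these counts stood apart from the list it came from.

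The controls themselves gave values to set beside these. From the second control 1 of the 16 control peaks was absent (6.25%, 0.158 to 30.2%), where 28.6% of all control peaks were. In the other direction 6 of 21 second control peaks were absent from the control (28.6%, 11.3 to 52.2%), against 15.6% overall. From the SETD2 #2 list 1 of the 21 second control peaks was absent (4.76%, 0.12 to 23.8%), against 20.5% overall. With fold enrichment of at least 3 asked of every list, the absent SR peaks became 0 of 9 for METTL3, 3 of 9 for METTL14 and for WTAP, 4 of 9 for SETD2 #1, and 3 of 12 from the second control to SETD2 #2. The order of the knockdowns therefore depended on that limit. It moved under others too. When at least 50% of both peaks had to overlap, WTAP was highest (9 of 16 absent, METTL14 8 of 16). In the authors' shorter lists METTL3 (16.7%) fell below SETD2 #1 (25.0%). With an FDR of at most 1e-05 in every list, METTL14 and WTAP were both at 40.0%, and METTL3 and SETD2 #1 both at 26.7%. Shares over all peaks were not computed under these other limits. Whether the SR counts there stood apart from their lists is therefore unknown.

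**Figure D2:**
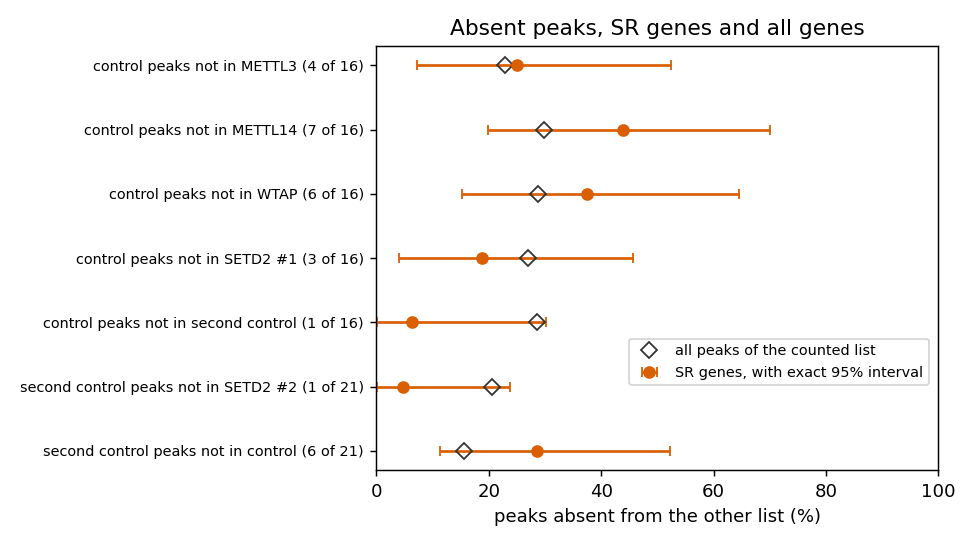
Share of peaks of a counted list with no overlapping peak in another list, for SR genes (circles with exact 95% intervals from counting) and for all peaks of the counted list (diamonds). The highest SR share is 43.8% for control peaks in the METTL14 list and the lowest 4.76% for second control peaks in the SETD2 #2 list, and every diamond lies within the interval beside it.

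Better supported peaks were also among those missing. By p-value, 13 of the 16 control peaks lay in the better-supported part of their list, split at the median. From the METTL14 list 4 of these 13 were absent (30.8%, 9.09 to 61.4%), where 7.90% of equally defined control peaks were. They were the peaks of SRSF5 regions 1 and 5, SRSF7 region 2 and SRSF11 region 1. From WTAP 3 of 13 were absent (23.1%, 5.04 to 53.8%, against 7.41%), from METTL3 1 (SRSF3, against 2.42%) and from SETD2 #1 1 (SRSF5 region 1, against 3.24%). The second control lacked 0 of the 13, with an upper bound of 24.7%, against 7.28%. Of the 17 such peaks of the second control, 3 were absent from the control (17.6%, 3.8 to 43.4%, against 6.06%) and 0 from SETD2 #2 (upper bound 19.5%, against 2.66%). The METTL14 interval lay above the share of all peaks, with a lower bound of 9.09% against 7.90%. Among all intervals for absent and gained shares it was the only one to do so, and their number was not allowed for. Also, 2 of its 4 peaks belong to 1 gene, and the interval does not allow for that. Support here means p-value alone. In the order above, the 4 peaks were 12.9, 1.45, 3.42 and 4.43-fold enriched (median of all control peaks 6.79). The share of all peaks was not matched for fold enrichment.

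Few peaks were gained, and each share's interval held that of all genes. Of the METTL3, METTL14 and WTAP lists' SR peaks, 0 of 12, 0 of 9 and 0 of 10 had no overlap with a control peak, with upper bounds of 26.5, 33.6 and 30.8%. Over all genes such peaks made up 10.6, 12.7 and 13.5% of these lists. SETD2 #1 gained 1 of 15 (8.07% over all genes), in SRSF10, and SETD2 #2 gained 2 of 23 over the second control (14.5% over all genes), in SRSF5 and SRSF6. With the same 50% rule, 2, 1 and 3 SR peaks counted as gained in the METTL3, METTL14 and WTAP lists. By that rule SETD2 #1 gained 3 of 15, and SETD2 #2 gained 4 of 23 over the second control. No share over all genes was computed under it.

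At the level of genes, SRSF10 had no peak in the METTL3, METTL14 and WTAP lists. SRSF3 had none in METTL3 and WTAP, and SRSF5 none in METTL14 and WTAP. Thus 2 of 9 genes were left without a peak for METTL3, 2 for METTL14 and 3 for WTAP, where 12.9, 18.0 and 16.6% of all genes with a control peak were. Under both SETD2 shRNAs each of the 9 kept at least 1 peak (15.1% and 10.5% of all genes did not). Between the controls each of the 9 kept 1 as well, where 13.4% and 6.73% of all genes did not. These counts changed with stricter limits on peaks. With fold enrichment of at least 3, genes left without a peak were 0 for METTL3 and 1 for WTAP. They were 2 each for METTL14, for SETD2 #1, for SETD2 #2 and from the second control to the control. In the shorter lists they were 0 for METTL3, 1 each for METTL14, WTAP and SETD2 #1, and 2 from the second control to the control. With an FDR of at most 1e-05, 2 genes were left for WTAP, and 1 each for METTL3, METTL14, SETD2 #1 and from the second control to the control. Shares over all genes were not computed under these limits, which also reduced the SR genes with a control peak (7 in the shorter list).

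SRSF1 is a broadly active splicing enhancer factor that moves between nucleus and cytoplasm and is known as an oncogene. Its region 1 lay at chr17:56084319-56084707 on the minus strand (build hg19, as all coordinates here). The control peak measured 389 bases, against 299 for METTL3 and SETD2 #1, 269 for METTL14, 239 for WTAP and 329 for both lists of the second set. All 7 peaks ended at the same 5' base, so the missing bases lay at the 3' edge. Fold enrichment, the authors' ratio of pulled-down RNA over input, was 6.51 in the control and 3.94 in the second control. Its lowest value was 3.36 (METTL14), and the others were 3.99 (METTL3), 4.76 (WTAP), 4.83 (SETD2 #1) and 5.45 (SETD2 #2). Region 2 of SRSF1, 180 bases at chr17:56083702-56083881, was the 1 control peak with no counterpart in any other list. Its log10 p was -7.68 and its fold enrichment 2.14.

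SRSF2, which stays in the nucleus and marks nuclear speckles, had both of its regions in all lists. Region 1 lay at chr17:74733128-74733456 on the minus strand. Its log10 p was -81.4 in control, -41.6 in METTL3, -9.61 in METTL14, -16 in WTAP, -20.7 in SETD2 #1, -203 in the second control and -96.3 in SETD2 #2. Fold enrichment was not ordered in that way, with 5.49 in control, 4.33 (METTL3), 8.54 (METTL14), 2.31 (WTAP), 2.16 (SETD2 #1), 5.09 (second control) and 3.23 (SETD2 #2), the METTL14 value being the highest. Its peak covered 329 bases in control, 270 in METTL3 and 210 in METTL14, WTAP and SETD2 #1, against 270 in both lists of the second set. Region 2, only 59 bases further 3', had peaks of 180 to 449 bases with fold enrichments of 2.65 to 14.9, and its METTL14 peak lacked the 5' block that the other 6 lists had. Opposite-strand peaks lay at both regions. At region 1 their log10 p differed from that of SRSF2 by at most 1.1 in the 7 lists. Fold enrichments there were within 10% in 6 lists, but in METTL14 the opposite strand had 2.49 against 8.54. At region 2, the opposite-strand peak with the better p-value had 23.8 against 14.9 in the second control. In SETD2 #2 it had 5.42 against 2.73, and the other lists were nearer.

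SRSF3 is the smallest SR protein, an export adaptor as well as a splicing factor, and its loss in mouse liver is known to lead to liver cancer. Its only region lay at chr6:36562130-36562449 on the plus strand. No peak was called there in the METTL3 and WTAP lists. The control peak had 180 bases, a log10 p of -16.5 and 1.9-fold enrichment. METTL14 had 151 bases (-9.27, 2.24-fold) and SETD2 #1 121 bases (-3.41, 1.4-fold). In the second set the peaks had 210 bases each, with a log10 p of -50.9 and 3.4-fold enrichment in the second control and -18.5 and 2.45-fold in SETD2 #2. The METTL14 list, which lacked more control peaks than the other lists, thus had a SRSF3 peak that METTL3 and WTAP did not.

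SRSF7, also an export adaptor and known for its zinc knuckle, had 2 regions 148 bases apart on the minus strand. Region 1, at chr2:38978246-38978546, had identical edges in all 7 lists, with 211 bases in 2 blocks around a gap of 90 bases. Its fold enrichment ranged from 2.1 in SETD2 #1 to 10.5 in METTL14. Region 2, at chr2:38977168-38978097, had a control peak of 211 bases (log10 p -49, 3.42-fold) and no peak in METTL14. In WTAP it measured 91 bases (-11.4, 2.38-fold), all in the 5' block. METTL3 and SETD2 #1 had the same 211 bases as the control, with log10 p of -35.3 and -52.9. The second control had 301 bases (-82.3) and SETD2 #2 211 (-60.2). Neighbouring regions of 1 gene thus differed in width. METTL14 and WTAP had region 1 at its full width and lacked all or part of region 2. Their p-values at region 1 were weaker than in the control (log10 p -12.9 and -16.9, control -35.4). Their fold enrichments there were higher (10.5 and 6.53, control 4.91).

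**Figure D3:**
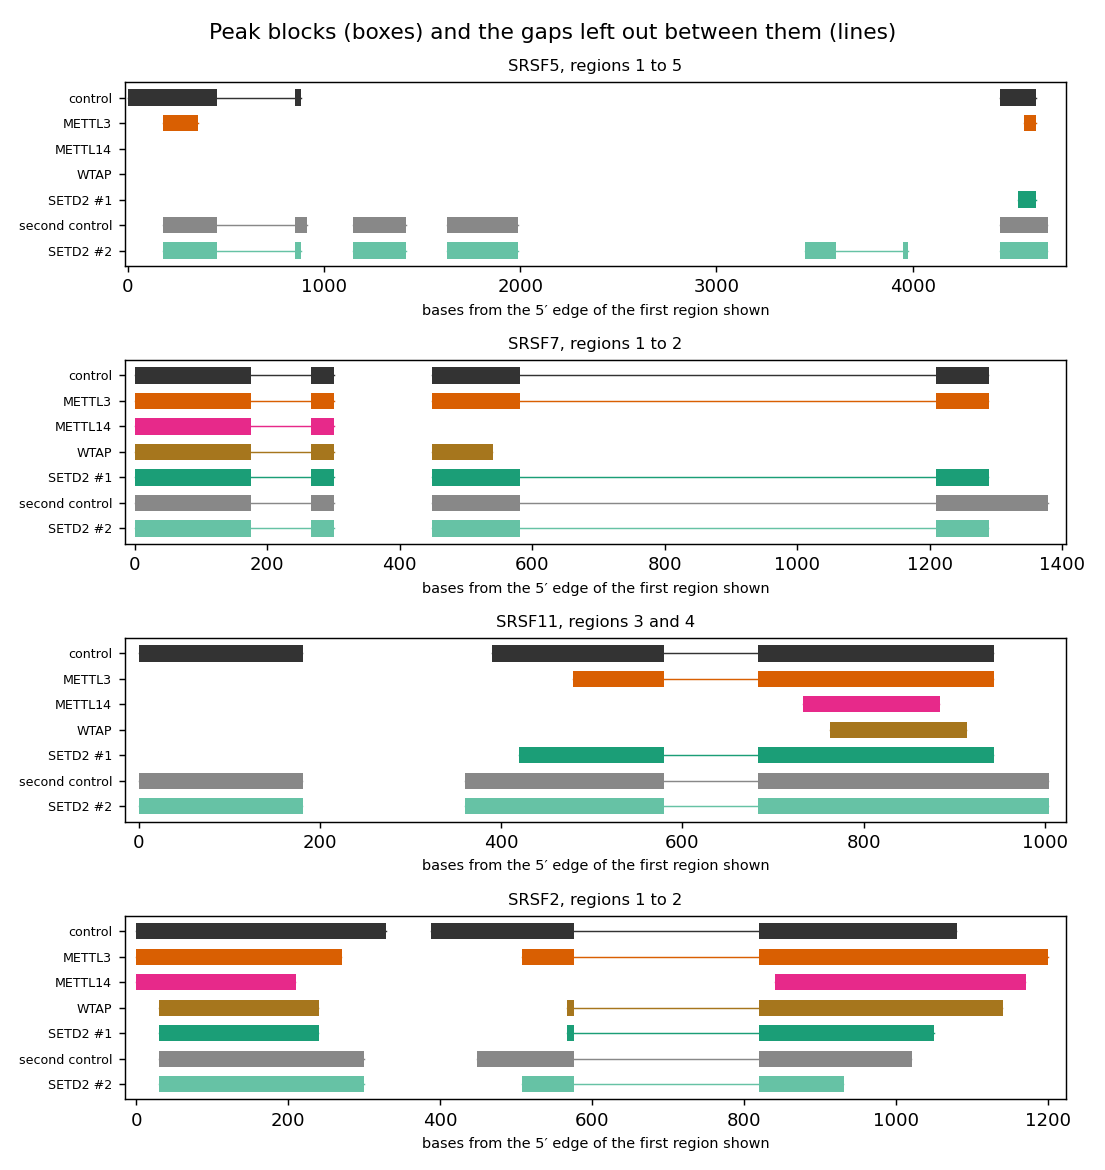
Peak blocks of SRSF5, SRSF7, SRSF11 (regions 3 and 4) and SRSF2 in the 7 lists (rows), drawn 5′ to 3′ in bases from the 5′ edge of the first region shown. Boxes are blocks and lines the gaps left out between blocks of 1 peak. SRSF5 is empty for METTL14 and WTAP, SRSF7 region 2 is missing for METTL14, and SRSF11 region 4 is 151 bases wide for METTL14 and WTAP against 450 in the control.

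SRSF4, whose arginine and serine domain is the longest among these proteins, carried the family's peak with the best p-value in every list. By fold enrichment, SRSF2 region 2 (14.9) and SRSF5 region 1 (14.8) were above it in the second control. Region 2, at chr1:29474794-29476688 on the minus strand, had 2 blocks. Its 3' block had 945 bases in the control and its peak 959 to 1019 bases in all 7 lists. The log10 p was -2660 (control), -3000 (METTL3), -1740 (METTL14), -3560 (WTAP), -1820 (SETD2 #1), -735 (second control) and -691 (SETD2 #2). By p-value it ranked between 186 and 468 from the top of its list. Fold enrichment ran from 16.8 (SETD2 #1) to 42.4 (WTAP) in the first set, with 31.7 in control, 31.6 for METTL3 and 29.3 for METTL14, and was 10.5 and 11.8 in the second control and SETD2 #2. The width thus stayed nearly the same under every shRNA. A second, weak region 4490 bases further 5' was called in the second set only, with 61 bases in the second control (log10 p -2.51) and 151 in SETD2 #2 (-5.32).

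SRSF6, a close relative of SRSF4, was likewise called at 1 region in all lists, at chr20:42086568-42087086 on the plus strand. The peak began at the same base in all 7. It had 299 bases in both controls, 240 in METTL3 and SETD2 #1, and 210 in METTL14, WTAP and SETD2 #2. Where it was 210 bases wide it had 1 block, and the block beyond a gap of 220 bases was missing. Fold enrichment was 10.3 in control and 8.7 in the second control. Each knockdown list had a lower value than its control, at 6.73 (METTL3), 5.69 (METTL14), 5.52 (WTAP), 4.71 (SETD2 #1) and 6.12 (SETD2 #2). The median fold enrichment of all peaks was also lower for SETD2 #1 (5.32, control 6.79) and SETD2 #2 (3.81, second control 4.33). That median was 7.02 (METTL3), 6.71 (METTL14) and 6.99 (WTAP). Ranked by fold enrichment within its list, the SRSF6 peak stood at percentile 64.9 (control), 48.9 (METTL3), 43.7 (METTL14), 42.7 (WTAP) and 44.9 (SETD2 #1). Its place differed little between the second control (76.9) and SETD2 #2 (75.2). A further region of 90 bases, 1.22-fold enriched, was called in SETD2 #2 alone.

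SRSF5 was first known from regenerating liver and from cells treated with insulin, and it differed more between lists than SRSF4 and SRSF6. Region 1, at chr14:70233646-70234557 on the plus strand, had 480 bases in the control (log10 p -26, 12.9-fold). In METTL3 it had 180 bases (-15.8, 3.72-fold), and it was absent from METTL14, WTAP and SETD2 #1. The second control had 330 bases (-132, 14.8-fold) and SETD2 #2 300 bases (-28.3, 3.38-fold). Region 5, the 3'-most, at chr14:70238094-70238333, was absent from METTL14 and WTAP. It covered 180 bases in control (-20.5, 1.45-fold), 61 in METTL3 (-4.5, 1.28-fold) and 91 in SETD2 #1 (-6.08, 1.33-fold), and 240 bases in each list of the second set (-36.7, 2.14-fold and -58.9, 3.08-fold). SRSF5 thus had no peak left in METTL14 and WTAP, though both control peaks had p-values better than the median. Both METTL14 and WTAP lacked 5 of the 16 control peaks of the family (22.8% of all control peaks). Among all control peaks, 7.19% were absent from METTL14 and WTAP but present in METTL3, as both SRSF5 peaks were.

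Between the ends of SRSF5, regions 2, 3 and 4 were called in the second set only. Regions 2 and 3 had 270 and 360 bases in the second control and the same widths in SETD2 #2, with fold enrichments of 1.64 to 1.95. Region 4 was called in SETD2 #2 alone (181 bases, 1.9-fold). Peak blocks of SRSF5 summed to 660 bases in the control, 241 in METTL3, 0 in METTL14 and WTAP and 91 in SETD2 #1, against 1200 in the second control and 1351 in SETD2 #2. The controls thus differed from each other at this gene as well, with 2 regions in the control and 4 in the second control.

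SRSF10 is an SR-like protein that turns into a splicing repressor when it loses its phosphates, as in heat shock and mitosis. It had 4 regions on the minus strand of chromosome 1, of which the control list had only the 3'-most, region 4 at chr1:24293960-24294230. There the control peak was among the weakest of its list, with 151 bases, a log10 p of -2.9 and 1.32-fold enrichment. SETD2 #1 had 121 bases (-4.92, 1.67-fold), the second control 241 (-25.1, 3.09-fold) and SETD2 #2 271 (-15.4, 2.46-fold), while METTL3, METTL14 and WTAP had none. Regions 1 to 3 lacked a control peak. The second control had all of them, with fold enrichments of 1.93 to 2.84, SETD2 #2 had regions 2 and 3, and SETD2 #1 had region 3 at a log10 p of -1.99. SRSF10, with 1 peak in the control and 4 in the second control, differed more between the controls in peak number than any other of the 9 genes.

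SRSF11, an SR-like protein that binds the U2AF splice site factor, had the most bases under peaks of the 9 in the control list. Its 4 regions lay on the plus strand. Region 4, the 3'-most, at chr1:70715967-70716610, was called in all lists. It measured 450 bases in control (log10 p -117, 2.98-fold), 361 in METTL3 (-30.3, 2.23-fold), 151 in METTL14 (-6.95, 1.62-fold), 151 in WTAP (-4.14, 1.37-fold) and 420 in SETD2 #1 (-34.7, 2.11-fold). Both lists of the second set had 540 bases (-114, 3.44-fold and -96.7, 3.72-fold). The METTL14 and WTAP peaks lay within the 3' of 2 blocks, and the block 5' of a gap of 104 bases was left without a peak.

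Region 1 of SRSF11, at chr1:70671365-70688449, was absent from METTL14 only. It covered 540 bases in the control (log10 p -26.2, 4.43-fold), 271 in METTL3 (-11.9, 4.25-fold) and 241 in WTAP (-9.37, 3.06-fold). The SETD2 #1 and SETD2 #2 lists each had it as 2 separate peaks, of 181 and 241 bases and of 151 and 360 bases, and the second control as 1 peak of 480 bases (-112, 5.79-fold). METTL3 and WTAP lacked the 5'-most block, which lies 15589 bases upstream of the next. Region 3 (181 bases in each list that had it) was called in control, the second control and SETD2 #2. Summed over the gene, peaks covered 1472 bases in control, 362 under METTL14, 543 under WTAP, 813 under METTL3 and 1203 under SETD2 #1, against 1622 and 1682 in the second set.

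**Figure D4:**
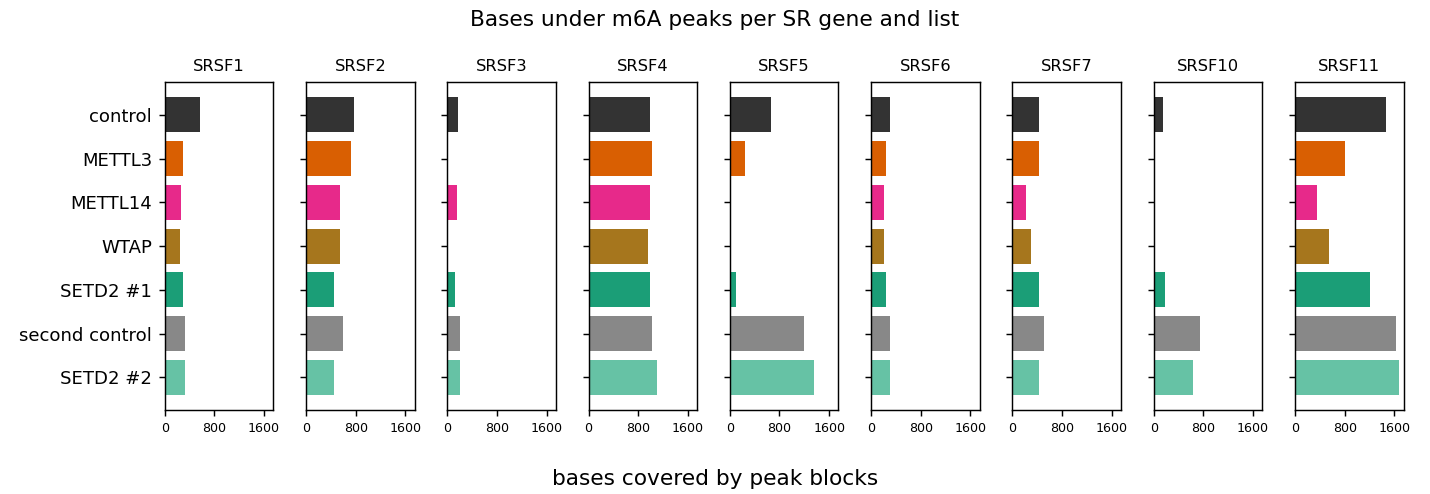
Bases covered by peak blocks for each of the 9 SR genes (panels) in each of the 7 lists (bars, on a common axis from 0). SRSF4 stays between 959 and 1110 bases, SRSF11 goes from 1472 in the control to 362 in METTL14, and SRSF10 from 151 in the control to 754 in the second control.

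Most matched peaks were narrower in the knockdown lists of the first set, for SR genes as for all genes, and the difference of these shares was not tested. Of SR peaks matched 1 to 1 with the control, 8 of 12 were narrower in METTL3 (56.7% of all matched peaks), 7 of 9 in METTL14 (62.4%), 9 of 10 in WTAP (62.2%) and 8 of 12 in SETD2 #1 (64.9%). Wider peaks numbered 1 for METTL3 (SRSF4), 0 for METTL14 and WTAP and 1 for SETD2 #1 (SRSF11 region 2). The matched SR peaks covered 4828 bases in control and 3753 in METTL3, 3597 and 2732 for METTL14, 4168 and 2793 for WTAP, and 4139 and 3514 for SETD2 #1. Against the second control, 3 of 18 were narrower in SETD2 #2 (44.1% of all), with 5555 and 5525 bases. Between the controls, 5 of 14 were narrower in the second control (60.7% of all), with 4891 and 5012 bases. Edges in neighbouring positions lay 29 to 31 bases apart in 37 of 66 cases, so a difference of that size is 1 step in the position of an edge.

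The median SR peak lay below the middle of every list by fold enrichment, and above it, or close to it, by p-value. The median SR peak stood at percentile 30.0 of the control list by fold enrichment and at percentile 68.0 by p-value. Over the other lists its percentile ran from 11.2 to 38.3 by fold enrichment and from 52.2 (SETD2 #1, 8 of 15 peaks better than the median) to 78.7 (second control) by p-value. No test was made of these places. The median fold enrichment of SR peaks was 3.92 in the control against 6.79 for all peaks, and 3.4 against 4.33 in the second control. In the control list 4 of 16 SR peaks (25.0%) were enriched less than 2-fold, against 7.0% of all peaks. Those 4 were SRSF3, SRSF5 region 5, SRSF10 region 4 and SRSF11 region 3, and each was absent from at least 2 of the METTL3, METTL14 and WTAP lists. How often control peaks of all genes enriched less than 2-fold were missing in that way was not counted, so no trait of SR peaks can be read from this. Peaks with several blocks made up 10 of 16 (62.5%) in the control, against 38.8% of all peaks.

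**Figure D5:**
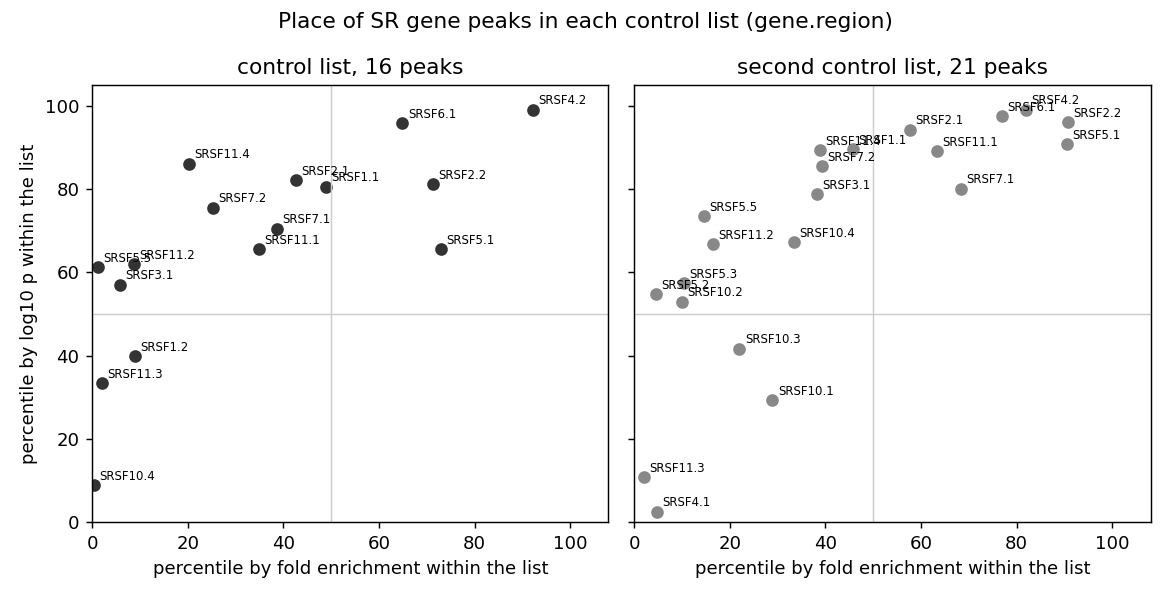
Place of each SR peak in the control list (left, 16 peaks) and the second control list (right, 21 peaks), as percentile by fold enrichment (horizontal) and by log10 p (vertical), with the strongest peaks highest. Points are labelled gene.region. Most lie above the middle by p-value and below it by fold enrichment, with SRSF4 region 2 near the top right of both.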

How the data were processed

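Per the submitters' processing notes, the authors used FastQC 0.11.5 and TopHat2 2.1.1 with build hg19. Per the labels, exomePeak ran on replicates 1 to 3 together. No source used here gives its version, annotation or handling of strand. Per the file headers, the deposited tables hold 1 peak per row, with a p-value for enrichment over input, its log10 and the log10 FDR, both scores, and the fold enrichment, a linear ratio. The largest FDR was 0.05. Depth is unknown.

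Duplicate rows (11 to 21 per list, by strand and blocks) were dropped. Overlaps and intervals were computed in Python 3.11.15 (numpy 2.4.6, pandas 2.3.3, scipy 1.17.1), and the overlap code was tested on simulated removals. Enrichments and p-values come from the authors and serve to describe peaks, and to rank or filter within a list. Where values of several lists stand side by side, they were neither adjusted for depth nor tested. Alternatives were other overlap, FDR and fold limits, the authors' shorter lists (p-value up to 1e-05, at least 2-fold), ranking by p-value and whole spans. Labels spell the METTL14 shRNA shMETTL14 in titles and shMETLT14 in a tag. The files hold identifiers only. Symbols came with the definition of the gene set, and the chromosomes of all 9 matched RefSeq (GRCh38.p14).

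The members and lists were chosen with earlier results of these data known. Regions followed list by list are those lost from a knockdown list although better supported than the control median, and each gene's best control region by p-value. Not every value of these is printed. Other regions were named after their values were seen. Related splicing genes, HepG2 markers, transcript regions and peak sequences were not analysed here.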

Additional observations from a re-analysis of the deposited data

How the results depend on the processing

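No paired analysis was possible because each list pools its 3 replicates. Leaving out a replicate was not possible either. Of 91 alternative values for absent and gained shares, 82 stayed within the counting interval of the reported value. These intervals are wide (19.8 to 70.1% for METTL14), so that tally says little about stability. Ignoring the strand or using whole spans gave the reported counts in each comparison. The order of the knockdowns changed under several limits, as given above. Without the peaks that overlap an opposite-strand peak, an alternative chosen after seeing the data, absent shares were 30.8, 53.8, 46.2 and 23.1% for METTL3, METTL14, WTAP and SETD2 #1. The absent counts stayed at 4, 7, 6 and 3, and only the control peaks counted fell, from 16 to 13. Each peak left out had a counterpart in every list, so these shares could only rise and say nothing about shared strands. With fold enrichment of at least 3, absent shares were 0% for METTL3 and the second control, 25.0% for SETD2 #2, and 0% of SETD2 #1 peaks were gained. SR peaks then numbered 9 in control, 6 in WTAP and in SETD2 #1, and 12 in the second control and in SETD2 #2, in 14 regions, 3 of them in all lists. Genes left without a peak became 0 for METTL3, 1 for WTAP, and 2 for SETD2 #1, for SETD2 #2 and from the second control to the control. For METTL14 they stayed at 2. In the shorter lists SETD2 #1 had 9 SR peaks, METTL3 10, and METTL14 and WTAP 8 each, and SETD2 #1 gained 0%. Genes left without a peak in these lists numbered 0 for METTL3, 1 each for METTL14, WTAP and SETD2 #1, and 2 from the second control to the control. With an FDR of at most 1e-05 in every list, SETD2 #1 gained 0%. Under that limit 2 genes were left without a peak for WTAP, and 1 each for METTL3, METTL14, SETD2 #1 and from the second control to the control. With that limit on the counted list alone, 0% were absent from SETD2 #2, and 0% were gained in SETD2 #1 and in SETD2 #2. By log10 p the median percentiles were 68.0 (control), 67.3 (METTL3), 58.0 (METTL14), 55.4 (WTAP), 52.2 (SETD2 #1), 78.7 (second control) and 65.7 (SETD2 #2). Over whole spans the median width was 454 bases in control and 320 in SETD2 #2. For these values the cause was not tested. Absent and gained shares, and genes left without a peak, were not computed over all genes under these alternatives. Alternatives for related splicing genes were not run.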
